A study of Mus musculus with 46 samples.

Results

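Visceral endoderm (VE) and epiblast (EPI) parts of mouse embryoids were compared by RNA sequencing, using the 12 libraries of the embryoid count table among the 46 libraries of the series. The table gave 6 VE and 6 EPI libraries, chosen by their column names, and 21812 genes in each. Per the labels, the embryoids had been grown for 5 days from EPSC, mouse extended pluripotent stem cells, together with cells named GBL-1, and the parts were separated by digestion with 0.5% pronase E. The labels gave no strain, sex, genetic change, culture date or number of embryoids behind a library for either group, and did not describe GBL-1 or state which starting cells formed each part. They did not say that replicates were separate embryoids or cultures. P-values therefore measured the spread between these libraries, which may be technical.

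The visceral endoderm is the outer epithelium that surrounds the epiblast of the early mouse embryo. It takes up maternal protein by endocytosis, breaks it down in lysosomes, secretes serum proteins and lipoproteins, lays down part of the basement membrane it shares with the epiblast, and sends the signals that pattern the epiblast. The epiblast is the pluripotent layer that gives rise to the embryo proper, and it passes from a naive to a formative and primed state as it prepares for gastrulation.

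Libraries differed in depth between the parts. Total counts were 7267487 to 8742036 in VE and 8880454 to 14824609 in EPI, so EPI genes were measured with a finer floor. A count of 0 allowed up to 3 counts, or 0.358 to 0.422 CPM (counts divided by the TMM-scaled library size and multiplied up to a common total) in a VE library and 0.198 to 0.328 CPM in an EPI library. Log2 CPM correlated at Pearson r = 0.970 to 0.972 across genes within VE, 0.934 to 0.940 within EPI and 0.671 to 0.692 between parts (genes are not independent replicates), and 79.5% of the variance lay on a first principal component that separated the parts. VE_6 had 14214 genes with a count against 12345 to 12691 in the other VE libraries. EPI_2 had 14845 genes with a count, and EPI_4 and EPI_6 had 14046 and 13847, against 13178 to 13262 in the other 3 EPI libraries.

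The 4 marker genes of the labelled parts differed in the direction of the labels. Afp, which encodes the fetal serum carrier alpha-fetoprotein, stood at 95.1, 101 and 126 CPM in VE (lowest, median and highest of 6 libraries) and 0, 0.109 and 1.53 CPM in EPI, a log2 change of 7.34 ± 0.34 (SE; adjusted p = 1.97e-13). Apoa1, the main protein of high-density lipoprotein, stood at 991, 1091 and 1142 CPM in VE and 0, 0.643 and 8.16 CPM in EPI, a log2 change of 8.93 ± 0.49 (SE; adjusted p = 1.71e-08). Ttr, the carrier of thyroid hormone and retinol-binding protein, stood at 657, 711 and 771 CPM in VE and 0.0660, 1.78 and 9.08 CPM in EPI, a log2 change of 7.89 ± 0.42 (SE; adjusted p = 1.20e-08). In all 3 genes every VE library lay above every EPI library. Pou5f1, which encodes the pluripotency factor OCT4, stood at 1.72, 2.71 and 7.04 CPM in VE and 140.1, 144 and 162 CPM in EPI, a log2 change of -5.37 ± 0.22 (SE; adjusted p = 1.04e-14), and its groups did not overlap either. Within EPI, EPI_2 held the most Apoa1 (80 counts, against 0 to 28 elsewhere) and Ttr (89 counts, against 1 to 33), and within VE, VE_6 held the most Pou5f1 (59 counts, against 13 to 30). Whether cells of the other part were carried over into those libraries was not tested. In bulk RNA, fewer cells of a type and less RNA per cell cannot be told apart.

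**Figure D1:**
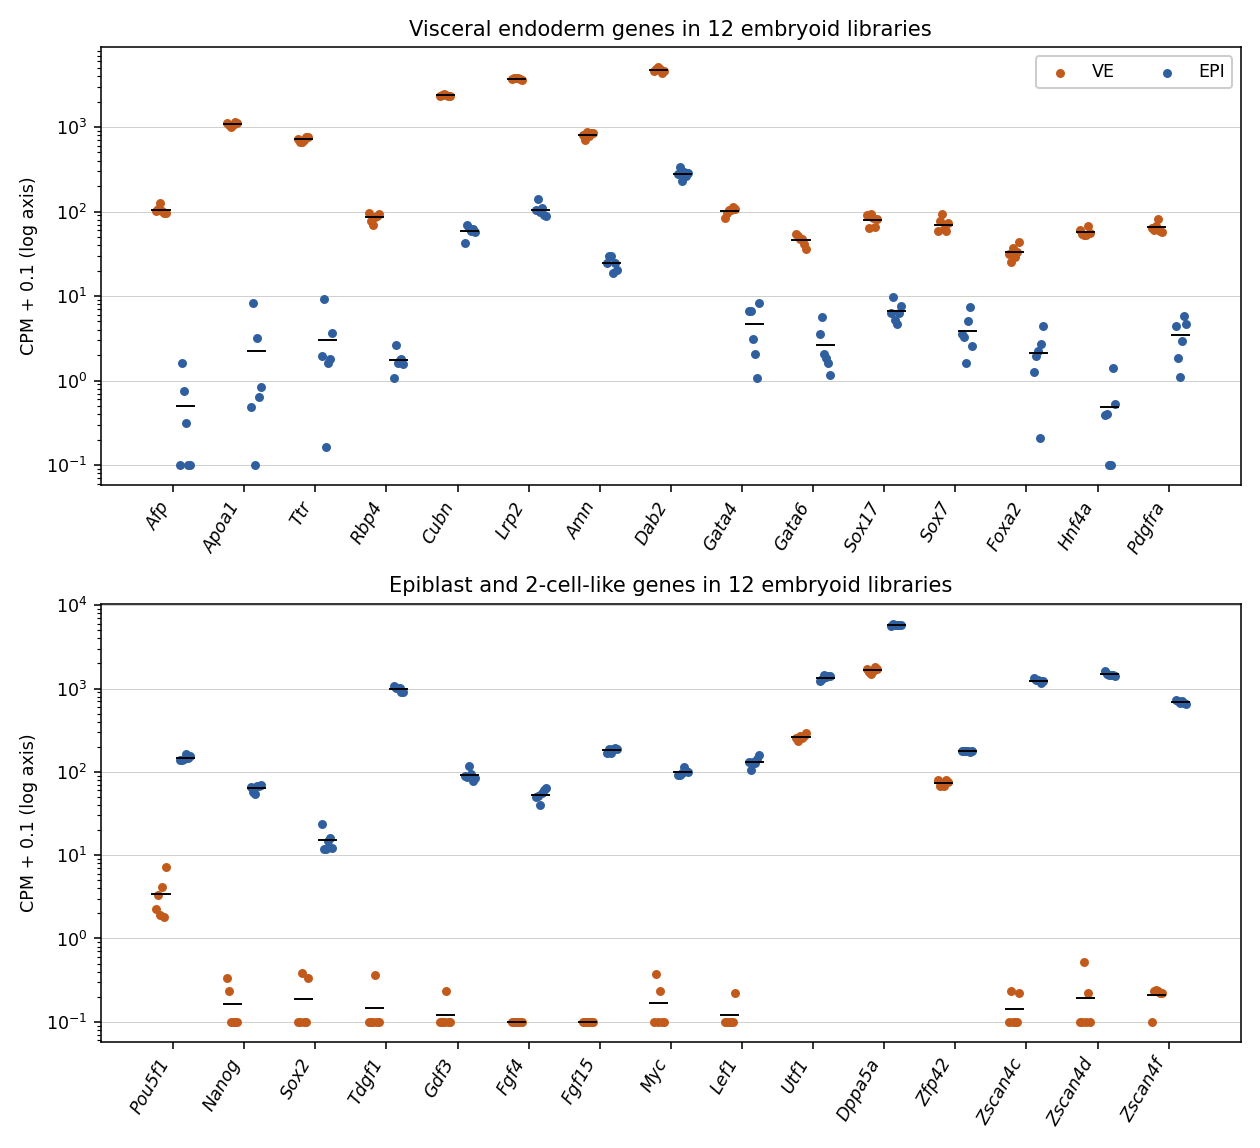
CPM plus 0.1 on a log axis for 15 visceral endoderm genes (upper panel) and 15 epiblast and 2-cell-like genes (lower panel), with a point for each of 6 VE and 6 EPI libraries and a line at each group mean. Every VE library lies above every EPI library in the upper panel and below it in the lower panel, and Utf1, Dppa5a and Zfp42 stay far above 0 in VE.

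Of the 11254 genes with enough counts to test, 8154 (72.5%) had a Benjamini-Hochberg adjusted p under 0.05 in the quasi-likelihood test of edgeR. "Rose" and "fell" below mean higher and lower in VE by that test. In VE 3882 genes (34.5%) rose and 4272 (38.0%) fell, and the library ranges of the parts did not overlap for 6222 genes (55.3%), with VE above for 26.9% and below for 28.4%. These shares are the background against which each list's count is read, and the median log2 change over all tested genes was -0.05.
Scaling the libraries to ribosomal protein genes moved the median of all genes to 0.26 and the split to 4966 higher and 3225 lower (60.6% of calls higher, against 47.6%), so small log2 changes depended on the scaling. At least 1 log2 unit separated the parts at 5024 called genes (2470 higher, 2554 lower), and at least 2 log2 units at 2359 (1087 higher, 1272 lower).

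**Figure D2:**
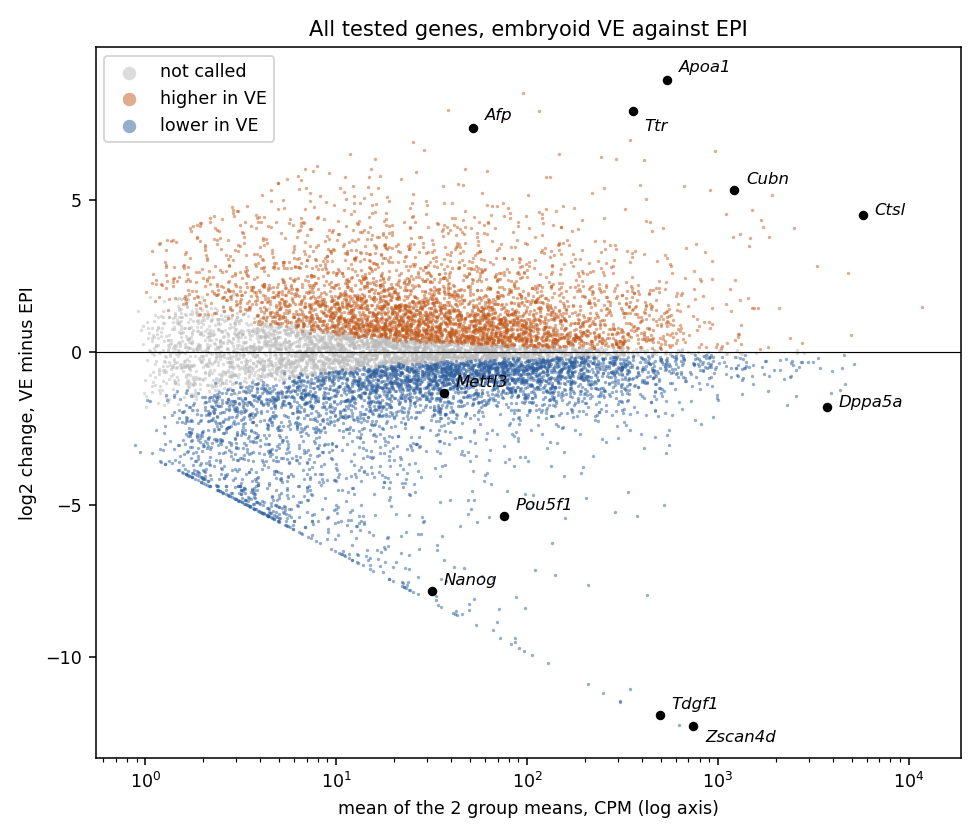
Log2 change of VE over EPI against the mean of both group means in CPM (log axis) for the 11254 tested genes, coloured where the adjusted p was below 0.05. Apoa1, Ttr and Afp lie near the upper edge and Zscan4d and Tdgf1 at the lower edge, while the line of points along the lower edge holds genes with 0 or a few counts in VE.

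The largest rises among genes with a mean of at least 10 CPM were led by Apoa1 and included Nrk, a kinase of extraembryonic tissue (76.6 ± 5.80 against 0.103 ± 0.204 CPM, mean ± SD, n = 6 each), Ttr, Apoa4, Apob and Afp. Also among the 15 were Aqp8, Irs4, Hnf4a, Pga5, Car7, Abcc2, Amot and Clic6. Pga5, annotated as a pepsinogen, stood at 1868, 1893 and 1983 CPM in VE and 8.93, 19.3 and 32.0 CPM in EPI, a log2 change of 6.60 ± 0.26 (SE; adjusted p = 5.00e-10). Amot, whose product angiomotin binds tight junctions and holds YAP in the cytoplasm, rose from 5.60 ± 2.64 CPM in EPI to 484 ± 32.9 CPM in VE (log2 change 6.40 ± 0.18, adjusted p = 4.37e-16). Among the 15 largest falls, 5 were Zscan4 genes or pseudogenes and 5 were Eif1ad copies. The other 5 were Tdgf1, Fgf15, Usp17lb, Trh, which encodes the precursor of thyrotropin-releasing hormone, and Ifitm3, a membrane protein that restricts viral entry and marks early germ cells. Trh had 0 counts in all VE libraries and 13372 in EPI (adjusted p = 5.18e-18), at least 547-fold lower in VE against a floor of 3 counts per library. Ifitm3 had 0 and 10357 counts (adjusted p = 1.15e-16), at least 426-fold lower.

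Genes of the secretory role of the visceral endoderm made up some of the widest differences. Of the serum carrier list, 8 of 18 measured members were tested, 6 rose and 1 fell (median log2 change 5.04). Rbp4, which carries retinol, stood at 70.0, 86.5 and 95.4 CPM in VE and 0.971, 1.58 and 2.55 CPM in EPI, a log2 change of 5.52 ± 0.18 (SE; adjusted p = 7.40e-17). Fgb, the fibrinogen beta chain, had 744 counts in VE and 1 in EPI, a VE to EPI ratio of 1002 (exact 95% interval 179 to 39617), and an adjusted p of 2.22e-12. Gc, the vitamin D carrier, also rose (log2 change 2.50 ± 0.30, adjusted p = 2.00e-07). Trf, the iron carrier transferrin, went the other way and fell from 27.5 ± 8.68 CPM in EPI to 6.30 ± 1.94 CPM in VE (log2 change -2.08 ± 0.25, adjusted p = 2.33e-07). Alb, the main serum protein of liver, had 0 counts in VE and 4 in EPI, and 10 of the 18 members, Alb among them, were too low to test.

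Lipoprotein genes rose with them. Of the apolipoprotein and lipid transport list, 13 of 15 measured members were tested, 10 rose and 0 fell (median log2 change 4.12). The median was 3.60 with Apoc3, which had 0 counts in EPI, set at its bound. Apob, the scaffold of the lipoproteins that endoderm secretes, stood at 115, 150.0 and 168 CPM in VE and 0, 0.315 and 2.14 CPM in EPI, a log2 change of 7.64 ± 0.36 (SE; adjusted p = 7.31e-13). Mttp, which loads lipid onto that scaffold, rose from 14.2 ± 3.75 to 259 ± 23.4 CPM (log2 change 4.15 ± 0.14, adjusted p = 1.58e-16). Apoe was well detected in both parts, at 768, 828 and 871 CPM in EPI and 5447, 5747 and 6174 CPM in VE, with a log2 change of 2.83 ± 0.04 (SE; adjusted p = 2.92e-22) and no overlap.

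The endocytic receptors that mark the absorptive surface of the visceral endoderm were far higher in VE. Of the endocytic and absorptive list, 19 of 20 measured members were tested, 17 rose and 2 fell (median log2 change 4.17). Cubn, which encodes cubilin, stood at 2319, 2374 and 2437 CPM in VE and 42.5, 60.3 and 69.5 CPM in EPI, a log2 change of 5.32 ± 0.08 (SE; adjusted p = 7.59e-21). Lrp2, the megalin receptor that works with cubilin, stood at 3629, 3723 and 3833 CPM and 89.2, 101 and 139 CPM, a log2 change of 5.14 ± 0.09 (SE; adjusted p = 1.83e-20). Amn, whose product amnionless brings cubilin to the membrane, rose by a log2 change of 5.03 ± 0.10 (adjusted p = 1.11e-19), and Dab2, their endocytic adaptor, by 4.06 ± 0.07 (adjusted p = 5.84e-20). EPI libraries still held Dab2 at 227, 281 and 337 CPM, 5.98% of the VE level, while Apoa1 stood at 0.199% of its VE level. The 2 members that fell were Slc2a1, the widespread glucose transporter GLUT1 (log2 change -1.64 ± 0.06, adjusted p = 7.91e-16), and Tfrc, the transferrin receptor. Tfrc stood at 0.600, 3.00 and 5.16 CPM in VE and 38.0, 55.4 and 58.4 CPM in EPI, a log2 change of -4.11 ± 0.28 (SE; adjusted p = 3.74e-11). Other glucose transporters of the list rose, namely Slc2a3 (log2 change 2.43 ± 0.05) and Slc2a2, which had 592 counts in VE and 1 in EPI, a ratio of 797 (exact 95% interval 143 to 31534).

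All 16 tested members of the lysosome list rose (median log2 change 3.17). Ctsl, the cathepsin L protease, stood at 10699.6, 10885 and 11512 CPM in VE and 429.6, 465 and 564 CPM in EPI, a log2 change of 4.51 ± 0.06 (SE; adjusted p = 8.74e-22). Ctsh changed the most in the list (log2 change 5.44 ± 0.11, adjusted p = 5.04e-19). Lgmn, an asparaginyl protease that matures cathepsins, rose from 157 ± 25.1 to 3186 ± 89.5 CPM. Lamp1, a protein of the lysosomal membrane, rose from 402 ± 17.2 to 2052 ± 86.1 CPM. The untested member, Ctss, had 0 counts in all 12 libraries.

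Every tested transcription factor of the endoderm list rose, 14 of 14, with a median log2 change of 4.11, and the other 6 of the 20 were too low to test. Gata4 stood at 83.2, 104 and 112 CPM in VE and 0.970, 4.75 and 8.10 CPM in EPI, a log2 change of 4.43 ± 0.30 (SE; adjusted p = 7.23e-11). Gata6, the earliest factor of the primitive endoderm, stood at 35.7, 47.5 and 53.9 CPM and 1.07, 1.86 and 5.51 CPM, a log2 change of 4.07 ± 0.29 (SE; adjusted p = 6.02e-11). Sox17 and Sox7, which act after it, rose by log2 changes of 3.56 ± 0.18 (adjusted p = 1.30e-13) and 4.16 ± 0.26 (adjusted p = 8.46e-12), and Pdgfra, a receptor of the same lineage, by 4.21 ± 0.28 (adjusted p = 2.89e-11). Hnf4a, a nuclear receptor that drives serum protein genes in visceral endoderm and liver, stood at 53.1, 55.0 and 66.4 CPM in VE and 0, 0.299 and 1.29 CPM in EPI, a log2 change of 6.63 ± 0.35 (SE; adjusted p = 4.95e-13). Cited1, a transcriptional coactivator, and Tfec, of the MiT family, were at 1781 ± 123 and 338 ± 10.6 CPM against 44.2 ± 5.91 and 12.8 ± 3.53 CPM in EPI.

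Promoters of Dab2 and Hnf4a are shown because GATA6 is known to act upstream of both genes in extraembryonic endoderm and Gata6, Dab2 and Hnf4a all rose. Each is the RefSeq window from 250 bases before to 50 after a start on GRCm38.p6, a build other than that of the counts, and capitals mark matches to AGATAA on either strand, a form of the GATA motif. Each gene has 2 starts in the table, and the window with a match was chosen after the letters were seen. Dab2 has its window at chr15:6299539-6299838 and Hnf4a at chr2:163506607-163506906, both on the plus strand.
Dab2: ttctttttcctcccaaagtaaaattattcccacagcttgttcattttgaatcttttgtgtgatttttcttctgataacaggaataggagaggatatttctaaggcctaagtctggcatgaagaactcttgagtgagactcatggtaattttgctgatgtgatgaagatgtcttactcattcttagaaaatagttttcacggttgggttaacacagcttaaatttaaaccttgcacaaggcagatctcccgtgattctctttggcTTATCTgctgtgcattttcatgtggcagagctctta
Hnf4a: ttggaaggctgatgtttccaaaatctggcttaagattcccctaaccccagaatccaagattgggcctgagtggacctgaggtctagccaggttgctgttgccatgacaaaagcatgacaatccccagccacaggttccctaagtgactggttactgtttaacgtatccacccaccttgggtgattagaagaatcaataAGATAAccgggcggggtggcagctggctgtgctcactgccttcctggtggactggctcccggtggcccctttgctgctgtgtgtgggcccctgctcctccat
Each window held 1 match, on the minus strand for Dab2 and on the plus strand for Hnf4a, and the window at the other start of each gene held none. Over the promoters of all genes listed by RefSeq, 11.2% held a match, against 5.92% for genes that rose, 6.52% for genes that fell and 6.20% for tested genes that were not called. A match describes the letters only.

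Genes of the anterior visceral endoderm, the signalling domain that restrains Nodal and Wnt in the adjoining epiblast, were present in VE. Of that list, 12 of 14 measured members were tested, 9 rose and 2 fell (median log2 change 2.32). Cer1, a secreted Nodal and BMP antagonist, had 470 counts in VE and 0 in EPI (adjusted p = 7.23e-09), at least 33.6-fold higher. Lhx1, a homeodomain factor of this domain, stood at 47.4, 58.1 and 69.8 CPM in VE and 0.408, 1.03 and 5.44 CPM in EPI, a log2 change of 4.96 ± 0.38 (SE; adjusted p = 5.98e-10). Hesx1, a homeodomain repressor, rose from 5.57 ± 1.26 to 153 ± 10.7 CPM, and Hhex from 7.08 ± 3.10 to 51.1 ± 6.85 CPM (adjusted p = 1.17e-17 and 8.15e-10). Cyp26a1, which degrades retinoic acid, stood at 769, 810.3 and 829 CPM in VE and 6.12, 10.9 and 13.3 CPM in EPI, a log2 change of 6.30 ± 0.14 (SE; adjusted p = 1.30e-18). The 2 genes that fell are also made by epiblast. They were Otx2, at 32.1 ± 2.77 CPM in VE and 207 ± 17.1 CPM in EPI (log2 change -2.68 ± 0.08, adjusted p = 5.06e-17), and Lefty1, a Nodal antagonist, at 80.5 ± 7.04 and 96.0 ± 6.02 CPM (log2 change -0.25 ± 0.08, adjusted p = 0.01). With ribosomal protein scaling Lefty1 stood at 0.063 and was not called.

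Basement membrane genes were higher in VE. Of this list, 18 of 20 measured members were tested, 16 rose and 1 fell (median log2 change 2.82). Col4a1, a type IV collagen chain, stood at 815, 847 and 864 CPM in VE and 38.8, 42.5 and 51.5 CPM in EPI, a log2 change of 4.27 ± 0.06 (SE; adjusted p = 2.92e-22). The alpha, beta and gamma chains of the main embryonic laminin rose together, with log2 changes of 3.21 ± 0.10 for Lama1, 3.50 ± 0.14 for Lamb1 and 3.20 ± 0.16 for Lamc1. Serpinh1, the collagen chaperone HSP47, rose by 4.13 ± 0.12 on the log2 scale. Col18a1 alone of the list fell, from 50.6 ± 12.6 CPM in EPI to 3.17 ± 1.52 CPM in VE (log2 change -3.91 ± 0.27, adjusted p = 3.16e-11). Col4a5 and Col4a6, other type IV chains, were too low to test, with 0 counts in VE and 7 and 4 in EPI.

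The parietal endoderm, the other derivative of the primitive endoderm, shares several of these genes, and of its list 9 of 12 measured members were tested, 6 rose and 1 fell (median log2 change 4.09). Sparc and Pdgfra count in it, as they are made by both endoderm layers. Srgn, which encodes the proteoglycan serglycin, rose from 114 ± 20.5 to 2898 ± 70.8 CPM (log2 change 4.67 ± 0.09, adjusted p = 1.51e-19). Pth1r, the receptor of parathyroid hormone-related protein, rose from 3.98 ± 1.53 to 119 ± 8.24 CPM (log2 change 4.83 ± 0.18, adjusted p = 1.16e-15). Thbd, which encodes thrombomodulin and marks parietal endoderm more narrowly, had 3 counts in VE and 1 in EPI and was not tested. Plat, the tissue plasminogen activator, rose from 0.198 ± 0.393 to 7.57 ± 2.88 CPM (log2 change 4.26 ± 0.67, adjusted p = 8.65e-06), and Vim, the mesenchymal intermediate filament of parietal cells, fell from 26.4 ± 2.44 to 7.33 ± 2.76 CPM (adjusted p = 4.57e-07). The list's members summed to 0.609% to 0.629% of counts in VE libraries and 0.0339% to 0.0405% in EPI libraries, and the part of parietal endoderm cells in the result was not tested.

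Epithelial genes were expressed in both parts, with different members ahead in each. The epithelial list also holds genes that oppose the epithelial state, such as Zeb1, so its counts and median do not describe epithelial genes alone. Of that list, 21 of 24 measured members were tested, 11 rose and 4 fell (median log2 change 0.66). Cldn6, a tight junction claudin, stood at 2583, 2657 and 2826 CPM in VE and 218, 242 and 252 CPM in EPI, a log2 change of 3.48 ± 0.04 (SE; adjusted p = 1.24e-23). The simple keratins Krt8 and Krt18 rose by log2 changes of 2.09 ± 0.09 and 1.95 ± 0.08. Cdh1, the epithelial cadherin, rose from 52.2 ± 12.7 to 99.5 ± 8.90 CPM (log2 change 0.92 ± 0.13, adjusted p = 2.33e-06). Epcam fell from 406 ± 24.9 to 288 ± 13.1 CPM, and Zeb1, a repressor of epithelial genes, fell from 10.7 ± 3.84 to 0.647 ± 0.411 CPM.

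Pluripotency genes were lower in VE as a group but by very different amounts. Of the core list, 16 of 17 measured members were tested, 1 rose and 13 fell (median log2 change -2.13). Nanog stood at 0, 0 and 0.240 CPM in VE and 53.4, 66.6 and 70.1 CPM in EPI, a log2 change of -7.82 ± 0.26 (SE; adjusted p = 1.58e-16). Sox2 stood at 0, 0 and 0.281 CPM in VE and 11.6, 13.3 and 23.8 CPM in EPI, a log2 change of -5.64 ± 0.44 (SE; adjusted p = 3.16e-10). Tdgf1, the Nodal coreceptor Cripto, had 2 counts over all VE libraries and 62569 in EPI, an EPI to VE ratio of 23236 (exact 95% interval 6432 to 191875) and an adjusted p of 2.17e-24. Gdf3, a Nodal-related ligand, had 1 count in VE and 5916 in EPI, a ratio of 4394 (exact 95% interval 788 to 173586).

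Other members stayed abundant in VE. Dppa5a, which encodes an RNA-binding protein of pluripotent cells, stood at 1480.1, 1667 and 1823 CPM in VE and 5698, 5788 and 5969 CPM in EPI, so VE held 28.6% of the EPI level (a log2 change of -1.81 ± 0.04 (SE; adjusted p = 2.82e-19)). Utf1, a chromatin factor of pluripotent cells, stood at 237, 262 and 292 CPM in VE, 19.4% of the EPI level, and Zfp42, the naive marker Rex1, at 67.3, 74.2 and 80.8 CPM, 41.8%. L1td1 stood at 55.8% and Lin28a, which blocks let-7 maturation, at 59.3%. Pou5f1 stood at 2.25% and Nanog at 0.0984%. Trim71 did not pass the test, at 100.3% of the EPI level (adjusted p = 0.96), and was called higher with ribosomal protein scaling (log2 change 0.32). Sall4, a zinc finger factor known in both epiblast and primitive endoderm, rose, with 288, 319.8 and 346 CPM in VE and 248, 261 and 279 CPM in EPI (a log2 change of 0.30 ± 0.05 (SE; adjusted p = 4.82e-05)), and its groups did not overlap. The share of the EPI level held in VE therefore spanned from near 0% to above 100% across these genes, in the same 6 libraries.

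**Figure D3:**
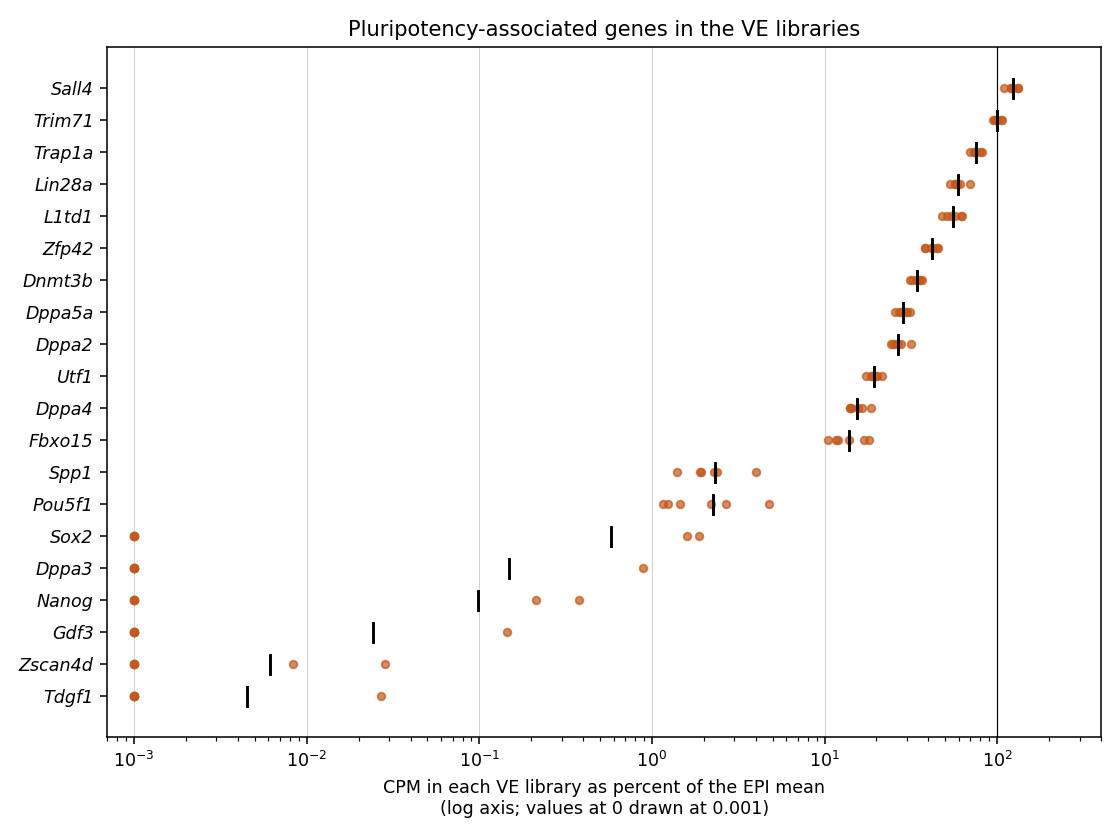
CPM of 20 pluripotency-associated genes in each of the 6 VE libraries as a percentage of the mean of the 6 EPI libraries (log axis, 0 drawn at 0.001), with a line at the VE mean. Sall4 and Trim71 lie near 100%, Dppa5a and Utf1 between 10% and 100%, Pou5f1 near 2.25%, and Tdgf1 and Zscan4d mostly at 0.

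Naive genes followed the same direction with named exceptions. Of the naive list, 16 of 18 measured members were tested, 3 rose and 12 fell (median log2 change -2.35). Fgf4, the ligand through which epiblast specifies primitive endoderm, had 0 counts in VE and 3281 in EPI (adjusted p = 1.49e-13), at least 138-fold lower. Nr0b1 and Dppa3 were at 0.534 ± 0.777 and 0.0222 ± 0.0544 CPM in VE against 45.6 ± 8.01 and 14.9 ± 1.77 CPM in EPI. The 3 that rose were Klf4 (log2 change 1.96 ± 0.41), Klf5 (1.48 ± 0.19) and Tbx3 (1.57 ± 0.38), factors also made by endoderm and other epithelia. Esrrb and Klf2, which mark the naive state narrowly, were low in EPI too, at 2.77, 6.88 and 10.0 and 4.10, 8.08 and 8.42 CPM.

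Of the formative and primed epiblast list, 19 of 22 measured members were tested, 2 rose and 15 fell (median log2 change -2.70). Pou3f1, a POU factor switched on as naive cells enter the formative state, stood at 0, 0.0615 and 0.281 CPM in VE and 24.5, 26.0 and 36.3 CPM in EPI, a log2 change of -6.47 ± 0.34 (SE; adjusted p = 4.65e-13). Lef1, a nuclear effector of Wnt, had 1 count in VE and 8352 in EPI, a ratio of 6203 (exact 95% interval 1113 to 245051). Fgf15 had 0 and 11377 counts (adjusted p = 1.90e-17), at least 472-fold lower. Fgf5, often used as a primed epiblast marker, stood at 141, 157 and 171 CPM in VE and 130.1, 134 and 162 CPM in EPI and did not pass the test (log2 change 0.15 ± 0.07, adjusted p = 0.067). It was called higher with ribosomal protein scaling (0.47) and without VE_3, VE_6, EPI_1 or EPI_5 in turn (0.21, 0.19, 0.17 and 0.20). Fgf8 rose, from 0, 0 and 1.40 CPM in EPI to 20.7, 31.1 and 36.2 CPM in VE, a log2 change of 5.74 ± 0.55 (SE; adjusted p = 1.40e-08).

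Some of the deepest falls belonged to genes of the 2-cell-like state, a rare state of cultured pluripotent cells that resembles the 2-cell embryo. All 10 tested members of that list fell (median log2 change -8.92, or -8.72 with genes at 0 set at their bounds). Every tested member was a copy of the Zscan4 or Usp17l family, so the count describes those families only. The other 3 of 13 measured, Zfp352, Tcstv1 and Tcstv3, were too low to test. Zscan4d stood at 0, 0 and 0.422 CPM in VE, with 4 counts in all, and at 1417, 1452 and 1636 CPM in EPI, with 93542 counts, a log2 change of -12.25 ± 0.13 (SE; adjusted p = 2.17e-24). Zscan4c had 2 and 78759 counts, an EPI to VE ratio of 29249 (exact 95% interval 8097 to 241523), and Zscan4f 5 and 43397 counts. Usp17lb, a deubiquitinase gene, had 0 and 12048 counts (adjusted p = 8.92e-18), at least 498-fold lower in VE. Zfp352 had 0 and 287 counts and did not enter the test, and 2 further list genes were not analysed here. The list summed to 0.396% to 0.439% of all EPI counts and 1.16e-05% to 5.50e-05% of VE counts, so every EPI library held it at a like level.

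The Zscan4 genes are close copies, and their RefSeq promoters (GRCm38.p6, 250 bases before to 50 after the start) are shown because the copies fell together and show how alike the genes are at their starts. Capitals mark bases that differ from Zscan4c in the best ungapped alignment, and Zscan4c itself has none. The windows lie at chr7:11005495-11005794 on the plus strand for Zscan4c, chr7:11166099-11166398 on the minus strand for Zscan4d, and chr7:11397665-11397964 on the plus strand for Zscan4f.
Zscan4c: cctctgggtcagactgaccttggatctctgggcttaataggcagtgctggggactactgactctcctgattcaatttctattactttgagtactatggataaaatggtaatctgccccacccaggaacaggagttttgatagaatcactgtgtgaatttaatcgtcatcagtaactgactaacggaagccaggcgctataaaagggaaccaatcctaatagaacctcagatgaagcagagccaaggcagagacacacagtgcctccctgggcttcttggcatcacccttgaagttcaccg
Zscan4d: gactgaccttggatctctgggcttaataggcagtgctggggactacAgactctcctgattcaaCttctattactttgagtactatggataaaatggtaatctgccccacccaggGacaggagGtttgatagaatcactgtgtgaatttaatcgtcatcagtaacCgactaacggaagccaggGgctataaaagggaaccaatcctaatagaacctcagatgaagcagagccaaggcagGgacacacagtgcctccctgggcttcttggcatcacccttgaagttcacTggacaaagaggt
Zscan4f: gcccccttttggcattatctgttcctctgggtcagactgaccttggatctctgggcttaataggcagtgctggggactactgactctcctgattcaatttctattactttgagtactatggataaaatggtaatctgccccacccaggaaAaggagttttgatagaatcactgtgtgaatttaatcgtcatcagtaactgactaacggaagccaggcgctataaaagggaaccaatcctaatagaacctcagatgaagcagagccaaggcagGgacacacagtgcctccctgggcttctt
Zscan4d and Zscan4f were offset from Zscan4c by 11 and 23 bases. Over the overlap, Zscan4d matched Zscan4c at 281 of 289 bases (97.2%), Zscan4f matched it at 275 of 277 (99.3%), and Zscan4d matched Zscan4f at 259 of 266 (97.4%). Transcripts were not compared, and how the authors' counting treated reads that match several copies is not given in the sources used here. The split of counts among Zscan4 copies, and among Eif1ad and Usp17l copies, is uncertain. The sum over the list does not depend on the split among its own members, but Zscan4-ps2, Zscan4-ps3 and the Eif1ad copies lie outside it.

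Ligands and receptors of the signals exchanged between the layers ran in both directions, as did all tested genes, of which 34.5% rose and 38.0% fell. Of the Nodal list, 17 of 18 measured members were tested, 8 rose and 6 fell (median log2 change 0.48). Nodal itself, the ligand, rose from 22.6, 28.1 and 33.5 CPM in EPI to 38.5, 55.7 and 59.6 CPM in VE, a log2 change of 0.93 ± 0.14 (SE; adjusted p = 6.10e-06). Its coreceptors split. Tdgf1 fell, as above, and Cfc1, the related coreceptor Cryptic, stood at 15.8, 22.4 and 26.9 CPM in VE and 0, 0.213 and 1.16 CPM in EPI, a log2 change of 5.24 ± 0.49 (SE; adjusted p = 4.69e-09). The type II receptors split as well, with Acvr2a at a log2 change of 1.29 ± 0.31 and Acvr2b at -2.14 ± 0.27, both called.

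Of the BMP list, 13 of 22 measured members were tested, 5 rose and 3 fell (median log2 change 0.24). Bmp2, a ligand made by visceral endoderm, had 466 counts in VE and 0 in EPI (adjusted p = 1.10e-08), at least 33.9-fold higher. Bmp4 fell, from 15.8, 16.6 and 23.0 CPM in EPI to 2.64, 4.43 and 5.16 CPM in VE, a log2 change of -2.07 ± 0.24 (SE; adjusted p = 1.57e-07). Id3, a target of BMP signalling, fell from 94.6 ± 13.2 to 11.7 ± 2.59 CPM (log2 change -2.99 ± 0.15, adjusted p = 1.07e-13). Of its relatives, which are targets of the pathway too, Id2 rose from 63.7 ± 10.8 to 83.1 ± 8.51 CPM (log2 change 0.38 ± 0.11, adjusted p = 0.0044), and Id1 was not called, at 61.4 ± 6.69 CPM in VE and 53.5 ± 4.42 CPM in EPI (log2 change 0.20 ± 0.10, adjusted p = 0.09). Id1 was called higher with ribosomal protein scaling (0.52) and without VE_3 (0.26).

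All 18 members of the FGF list were tested, and 6 rose and 10 fell (median log2 change -1.20). Receptors divided between the parts: Fgfr1 fell from 13.6, 25.5 and 30.4 to 0, 0.411 and 2.64 CPM (a log2 change of -4.64 ± 0.46 (SE; adjusted p = 1.55e-08)). Fgfr3 rose from 0.204, 1.01 and 2.77 to 18.2, 22.9 and 27.4 CPM (a log2 change of 4.02 ± 0.42 (SE; adjusted p = 2.91e-08)), and Fgfr2 and Fgfr4 rose by 1.81 ± 0.63 and 2.47 ± 0.33 on the log2 scale. Of the feedback genes that ERK signalling switches on, Dusp6 stood at 6.79, 7.36 and 9.71 CPM in VE and 190.3, 204 and 227 CPM in EPI, a log2 change of -4.67 ± 0.10 (SE; adjusted p = 1.53e-19). Etv5, Etv4, Dusp4, Spry2, Spry4 and Spred1 also fell, and Spry1 was not called (log2 change 0.25 ± 0.29, adjusted p = 0.46). Il17rd, a feedback inhibitor also in the list, went the other way and rose. Its libraries overlapped, at 8.40 to 26.9 CPM in VE and 6.22 to 15.7 CPM in EPI.

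Of the Wnt list, 16 of 25 measured members were tested, 7 rose and 7 fell (median log2 change -0.56). Wnt11, a ligand, rose from 0.777, 1.71 and 2.95 CPM in EPI to 84.3, 90.7 and 98.1 CPM in VE, a log2 change of 5.48 ± 0.19 (SE; adjusted p = 2.37e-16). Secreted antagonists also split, with Dkk1 at a log2 change of 1.52 ± 0.21, Sfrp5 at 4.02 ± 0.55 and Sfrp2 at -6.10 ± 0.45, all called. Nkd2, a feedback inhibitor, had 0 counts in VE and 562 in EPI (adjusted p = 5.35e-08), at least 22.7-fold lower, and Axin2, the common readout of the pathway, was low in both parts and not called.

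Of the hedgehog list, 6 of 10 measured members were tested, 1 rose and 3 fell (median log2 change -1.56). Ihh, the ligand of visceral endoderm, stood at 20.5, 24.2 and 35.0 CPM in VE and 0, 0.358 and 3.04 CPM in EPI, a log2 change of 4.30 ± 0.54 (SE; adjusted p = 6.58e-07). The effectors Gli2 and Gli3 fell, with 4 and 2 counts over the VE libraries and 421 and 454 over the EPI libraries. Of the list of PDGF, VEGF, KIT and IGF genes, 10 of 15 measured members were tested, 8 rose and 0 fell (median log2 change 1.61). Vegfa, which guides yolk sac vessels, rose from 1.55 ± 1.05 to 20.5 ± 3.26 CPM (log2 change 3.53 ± 0.39, adjusted p = 8.07e-08).

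Of the retinoid list, 13 of 18 measured members were tested, 4 rose and 5 fell (median log2 change 0.04), and that median turned negative when libraries were scaled to their totals. Carriers and enzymes differed by part: Rdh10, which makes retinal, rose from 4.41 ± 1.60 to 126 ± 6.76 CPM, and Crabp1, a carrier within cells, had 0 counts in VE and 1303 in EPI, at least 53.5-fold lower (adjusted p = 5.75e-11). Receptors differed as well, with Rarb at a log2 change of 3.67 ± 0.66, Rarg at -5.62 ± 0.40 and Rxrg at -7.12 ± 0.35, all called.

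DNA methylation genes were mostly lower in VE. All 11 members were tested, 1 rose and 8 fell (median log2 change -1.06). Dnmt3a, a de novo methyltransferase, stood at 126, 148 and 159 CPM in VE and 883, 922 and 1048 CPM in EPI, a log2 change of -2.70 ± 0.06 (SE; adjusted p = 3.45e-19). Dnmt3b stood at 219.8, 243 and 260.3 and 656, 711 and 747 CPM, a log2 change of -1.55 ± 0.05 (SE; adjusted p = 1.60e-16). Tet1, which oxidises methylcytosine, fell from 182 ± 12.7 to 49.2 ± 5.54 CPM, and Tet3 was the member that rose (log2 change 1.10 ± 0.31, adjusted p = 0.0032).

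The enzymes of N6-methyladenosine (m6A), the mRNA mark named in the series title, changed by smaller amounts and in both directions. All 8 writer genes were tested, and 1 rose and 3 fell. Mettl3, the catalytic subunit, stood at 14.7, 18.4 and 33.7 CPM in VE and 40.8, 53.3 and 66.2 CPM in EPI, a log2 change of -1.35 ± 0.19 (SE; adjusted p = 1.88e-06), and its groups did not overlap. Mettl14, its partner, stood at 31.1, 37.7 and 49.5 and 22.2, 27.1 and 37.2 CPM, a log2 change of 0.47 ± 0.16 (SE; adjusted p = 0.012). Wtap, the adaptor of the complex, had a log2 change of -0.30 ± 0.09 (SE; adjusted p = 0.0072), and Cbll1 a log2 change of -0.56 ± 0.19 (SE; adjusted p = 0.012). With ribosomal protein scaling Wtap turned to 0.016 and Cbll1 lost its call. Virma, the scaffold subunit, was not called (log2 change 0.27 ± 0.19, adjusted p = 0.20), nor were Zc3h13, Rbm15 and Rbm15b, but all 4 were called higher with ribosomal protein scaling.

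Of the 11 reader and eraser genes, 4 rose and 4 fell. Igf2bp2, which binds and stabilises mRNA, stood at 145, 162 and 167 CPM in VE and 34.8, 39.8 and 48.7 CPM in EPI, a log2 change of 1.95 ± 0.09 (SE; adjusted p = 8.20e-14). Ythdf1 rose from 23.5 ± 6.68 to 50.9 ± 6.35 CPM (adjusted p = 5.29e-06) and Ythdf2, which promotes decay of marked mRNA, fell from 271 ± 10.5 to 113 ± 8.11 CPM (adjusted p = 6.93e-14). Of the erasers, Fto fell (log2 change -1.06 ± 0.18, adjusted p = 2.71e-05) and Alkbh5 rose (log2 change 0.23 ± 0.06, adjusted p = 0.0031). Hnrnpa2b1 fell from 1068 ± 39.6 to 762 ± 23.0 CPM, and Igf2bp3 fell from 114 ± 9.10 to 85.2 ± 7.50 CPM but was not called with ribosomal protein scaling. Ythdc2 rose (log2 change 0.76 ± 0.30, adjusted p = 0.03) and was not called without VE_6, EPI_2, EPI_3 or EPI_4 in turn (log2 changes 0.68, 0.65, 0.66 and 0.70). Ythdc2 also lost its call with library totals (0.67) and without VE_6 and EPI_2 together (0.55). Igf2bp1 was not called (log2 change -0.07 ± 0.07, adjusted p = 0.36). It was called higher, at 0.24, with ribosomal protein scaling and lower, at -0.16, with library totals. Ythdf3 and Ythdc1 were not called and were called higher with that scaling.

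**Figure D4:**
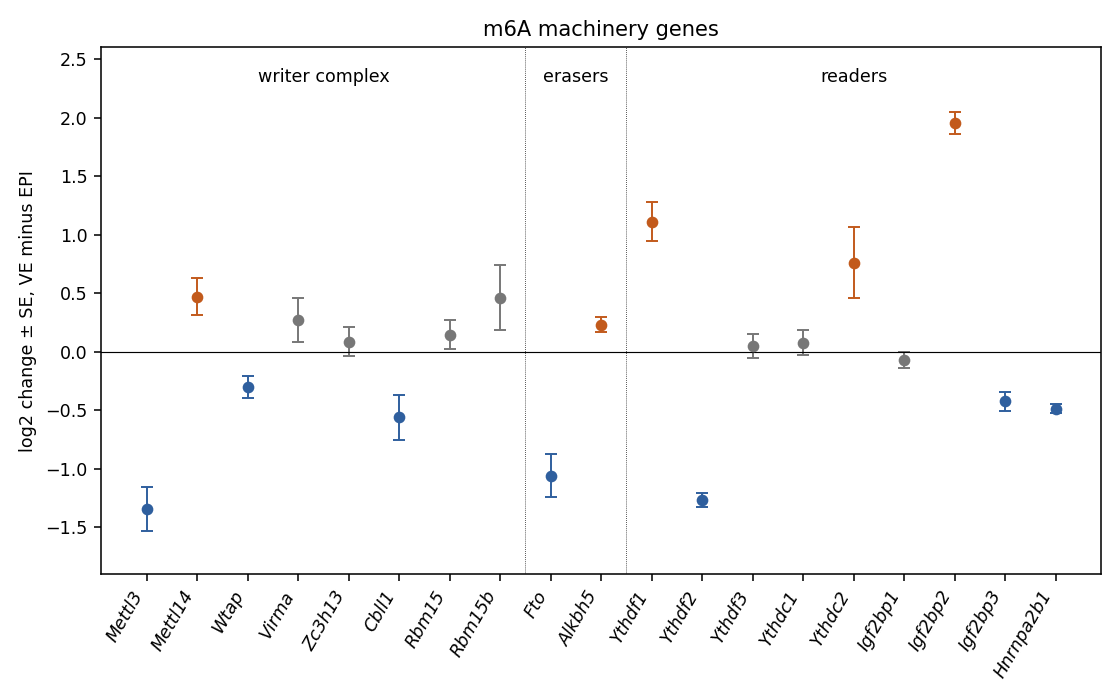
Log2 change of VE over EPI with its SE for 19 m6A writer, eraser and reader genes, coloured where the adjusted p was below 0.05 and grey where it was not. Mettl3, Fto and Ythdf2 lie below -1 and Igf2bp2 and Ythdf1 above 1, with the rest between.

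Cell cycle and growth genes were lower in VE. All 22 proliferation genes were tested, 2 rose and 16 fell (median log2 change -1.50). Ccnd1, cyclin D1, stood at 0.666, 1.36 and 1.97 CPM in VE and 198, 217 and 240.0 CPM in EPI, a log2 change of -7.13 ± 0.15 (SE; adjusted p = 5.96e-20). All 6 Mcm genes of the list, which encode the replicative helicase, fell by 1.92 to 2.67 on the log2 scale. Ccne1, cyclin E1, fell from 735 ± 26.7 to 83.3 ± 10.1 CPM. Ccnb1 and Cdk1, which drive mitosis, were not called, and Mki67 rose (log2 change 1.09 ± 0.09, adjusted p = 1.22e-09), as did the cell cycle inhibitor Cdkn1b. Myc, a growth regulator, stood at 0, 0 and 0.271 CPM in VE and 91.5, 99.1 and 113 CPM in EPI, a log2 change of -8.46 ± 0.23 (SE; adjusted p = 4.07e-18). Of 36 replication histone genes tested, 1 rose and 28 fell, and of 83 ribosomal protein genes 2 rose and 66 fell (median log2 change -0.34), or 27 and 32 when libraries were scaled to these genes.

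Metabolic lists moved in both directions. Of 18 glycolysis and hypoxia genes, 6 rose and 12 fell (median log2 change -0.49). Pkm, pyruvate kinase, stood at 2149, 2215 and 2301 CPM in VE and 5427, 5522 and 6004 CPM in EPI, a log2 change of -1.34 ± 0.03 (SE; adjusted p = 3.29e-19), and Pdk1, which holds pyruvate back from mitochondria, fell from 186 ± 14.2 to 15.3 ± 5.13 CPM. Of 16 cholesterol synthesis genes, 5 rose and 10 fell: Hmgcs1 and Idi1, early in the pathway, had log2 changes of -1.08 ± 0.06 and -1.82 ± 0.08, and Sc5d, near its end, rose by 1.63 ± 0.10. Of 12 tested mitochondrially encoded genes, 9 rose and 0 fell (median log2 change 1.09, from 0.075 to 3.06). The list's summed share of counts differed less, at 0.980% to 1.13% in VE libraries and 0.700% to 0.922% in EPI libraries. The abundant mt-Cytb overlapped between the parts, while mt-Co2 stood at only 2.71 to 5.46 CPM in VE.

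Chaperones of the endoplasmic reticulum rose, and genes of the stress response ran in both directions. All 17 members were tested, 11 rose and 3 fell (median log2 change 1.20). Calr, calreticulin, stood at 1320.1, 1371 and 1388 CPM in VE and 253, 269 and 284 CPM in EPI, a log2 change of 2.34 ± 0.04 (SE; adjusted p = 1.94e-21). Hspa5, the chaperone BiP, rose from 868 ± 63.2 to 2384 ± 96.5 CPM. Of the stress-response members, Herpud1, Ddit3 and Atf4 rose by log2 changes of 2.17 ± 0.08, 1.20 ± 0.29 and 0.40 ± 0.09, and Asns, Chac1 and Ddit4 fell. Of 13 tested p53 genes 1 rose and 7 fell, and Trp53 itself stood at 111, 113 and 138 CPM in VE and 762, 809 and 888 CPM in EPI, a log2 change of -2.79 ± 0.06 (SE; adjusted p = 1.06e-19). Of 13 tested immediate early genes, which can respond within minutes to cell dissociation, 5 rose (Atf3 and Jun by log2 changes of 2.93 ± 0.32 and 2.47 ± 0.32) and 7 fell (Dusp1 and Ier2 by -4.65 ± 0.14 and -2.08 ± 0.07). The parts were separated by a protease digestion, and its effect on these genes was not tested.

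Imprinted and X-linked genes of extraembryonic interest also differed. Of the 9 tested, 3 rose and 5 fell. Rhox5, a homeobox gene of extraembryonic endoderm, stood at 1153, 1245 and 1287 CPM in VE and 107, 113 and 135 CPM in EPI, a log2 change of 3.42 ± 0.06 (SE; adjusted p = 1.32e-21). Snrpn stood at 27.3, 29.8 and 36.9 CPM in VE and 951, 1003 and 1072 CPM in EPI, a log2 change of -5.01 ± 0.07 (SE; adjusted p = 2.92e-22), and Mest fell from 209 ± 16.3 to 6.58 ± 2.01 CPM.

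The lists of markers of other cell types that an embryoid might hold summed to small shares of all counts, and their members ran in both directions. Of the primitive streak list, 5 of 15 members were tested, 3 rose and 2 fell. Brachyury (T), the defining streak marker, had 0 counts in all 12 libraries, as did Mesp1. Eomes, which visceral endoderm also expresses, stood at 45.9, 55.4 and 69.9 CPM in VE and 0.323, 1.71 and 6.45 CPM in EPI, a log2 change of 4.53 ± 0.35 (SE; adjusted p = 6.69e-10), and Mixl1 rose from 1.03 ± 0.863 to 21.4 ± 2.62 CPM. The streak list summed to 0.00733% to 0.0100% of counts in VE and 0.000788% to 0.00157% in EPI.

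For trophoblast, 8 of 22 members were tested, 5 rose and 2 fell (1 of which, Rhox9, lost its call in several alternatives), with sums of 0.0212% to 0.0245% in VE and 0.00385% to 0.00547% in EPI. Besides Eomes, the members that rose were Plet1, a surface protein of early trophoblast, from 5.42 ± 2.58 to 85.6 ± 8.84 CPM (log2 change 3.93 ± 0.23, adjusted p = 2.18e-12), Plac1 (log2 change 5.43 ± 0.45), Tead4 (2.99 ± 0.28) and Rhox6 (2.68 ± 0.26). Plac1, Tead4 and Rhox6 stood at 24.2 ± 4.77, 23.8 ± 2.37 and 23.4 ± 3.72 CPM in VE and 0.310 ± 0.423, 2.81 ± 1.29 and 3.47 ± 1.19 CPM in EPI. Ascl2, a factor of trophoblast progenitors, fell from 12.2 ± 4.93 to 0.382 ± 0.396 CPM. Cdx2, a defining factor of trophoblast, had 24 and 14 counts in VE and EPI, Elf5 17 and 0, and the placental lactogen Prl3d1 0 in all libraries. For germ cells, 8 of 10 were tested, 1 rose (Kit, whose call was lost in several alternatives) and 6 fell, with sums of 0.00327% to 0.00433% in VE and 0.0186% to 0.0269% in EPI. Dnd1, which protects mRNA from microRNAs in germ cells, fell from 49.2 ± 11.2 to 5.57 ± 2.38 CPM, Tdrd12 from 26.6 ± 6.89 to 0.350 ± 0.484 CPM, and the helicase gene Ddx4 from 35.3 ± 7.94 to 18.3 ± 3.35 CPM. Dazl, a germ cell RNA-binding protein, fell from 42.8 ± 9.76 to 1.80 ± 1.31 CPM, and Mael, of the transposon-silencing pathway, had 2 counts in VE and 1702 in EPI, a ratio of 632 (exact 95% interval 175 to 5224).

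Neural ectoderm genes summed to 0.000142% to 0.000330% of counts in VE and 0.00206% to 0.00331% in EPI. Of 12 members 3 were tested and 1, Tubb3, fell, and Pax3, Zic1 and Olig3 had 0 counts in every library. Blood and endothelial genes summed to 0.00175% to 0.00248% in VE and 0.00342% to 0.00493% in EPI. Of 14 members 3 were tested, Runx1 rose and Pecam1 fell, Gata1 had 122 counts in VE and 0 in EPI without entering the test, and the embryonic globins Hbb-y and Hba-x had 0 in all. Fibroblast genes summed to 0.000374% to 0.000702% in VE and 0.000405% to 0.00146% in EPI. Only Col5a1 of 15 was tested, and rose, and Col3a1 had 0 counts throughout. The part of any of these cell types in the results was not tested.

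**Figure D5:**
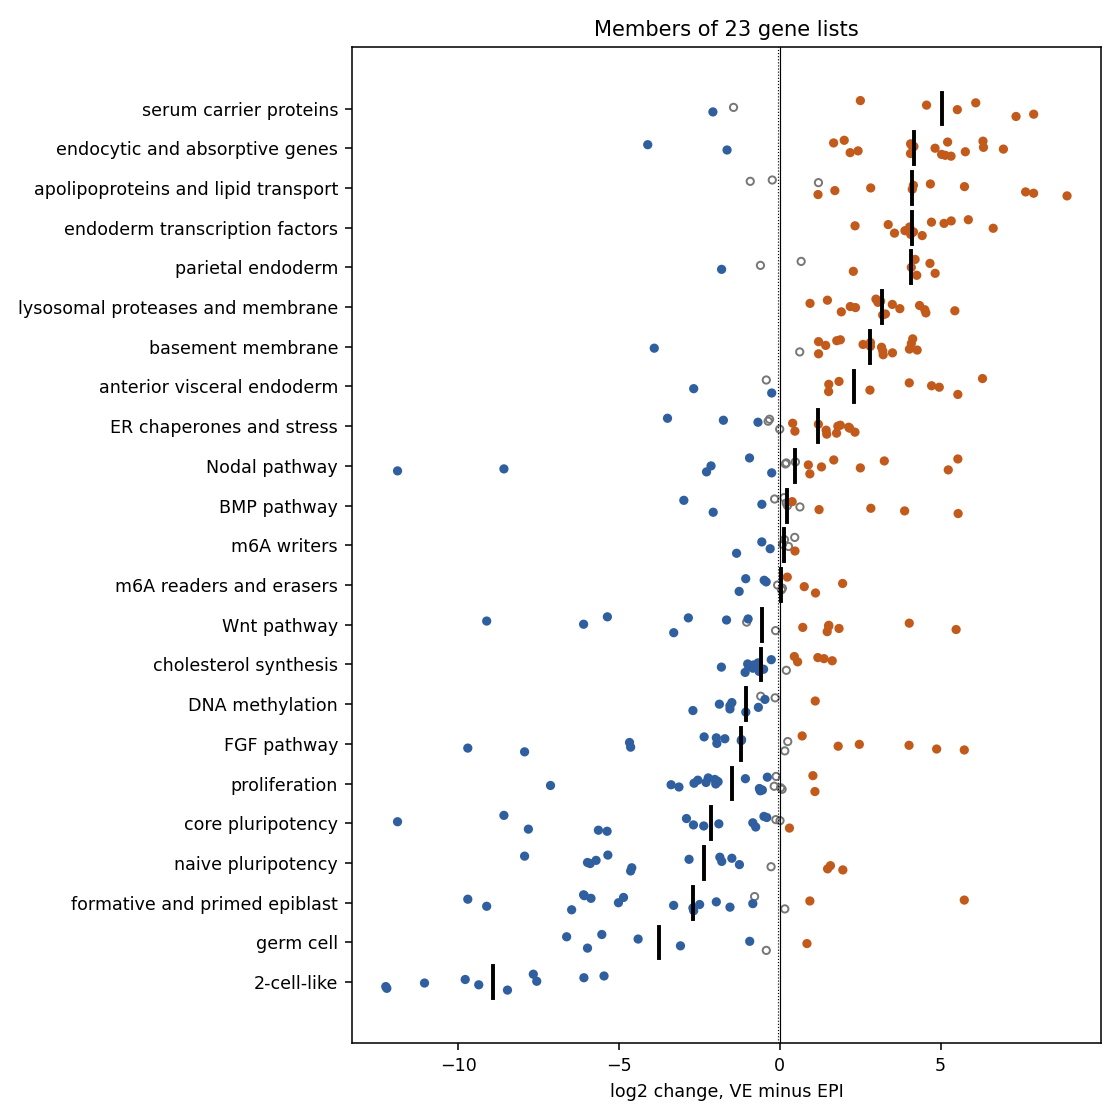
Log2 change of VE over EPI for each tested member of 23 gene lists, with members called higher in orange, called lower in blue and not called as open circles, a bar at each list's median and a dotted line at the median of all genes (-0.05). Endoderm lists lie to the right and pluripotency, germ cell and 2-cell-like lists to the left, with Nodal, BMP and m6A lists around 0.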

How the data were processed

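RNA had been measured in 12 embryoid libraries, extracted with TRIzol and prepared with 2 total RNA kits per the labels' protocols, which do not assign a kit to a library. The submitters' processing notes list DESeq2, STAR 2.7.11b, Subread, FastQC 0.12.1 and Trim Galore, without their order, and the mm39 build. No annotation or strand setting is given in the sources used here, so overlapping, antisense and near-identical genes are uncertain. The authors deposited raw counts per gene as whole numbers.

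Genes passing edgeR's count filter (10 counts in enough libraries, 15 in all) entered a robust quasi-likelihood fit (edgeR 4.0.16 under R 4.3.3, TMM factors, prior count 2), tested on simulated counts, and were called at a Benjamini-Hochberg adjusted p under 0.05. SEs come from the change and its test statistic. Fitted changes of genes near 0 in a part depend on the prior count. Folds against 0 use 3 counts per library, and ratios over 1 to 3 counts carry exact intervals, which cover counting error only. Each library counted as 1 replicate. Pairs within a part differed by more than counting noise (chi-square over its degrees of freedom, 6.17 to 20.0). That does not show whether the libraries came from separate embryoids or cultures.

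The comparison and its 40 gene lists were chosen with earlier results of these data known. Named genes were 4 markers, 7 lineage factors, the 15 largest changes each way (mean of at least 10 CPM, no overlap, no predicted locus name), up to 6 members per list by adjusted p, and all m6A genes; further members were picked for their roles after values were seen. Alternatives were RLE factors, library totals, ribosomal protein scaling, DESeq2 1.42.0, other filters, larger minimum changes, a replicate block, each library left out, and, chosen after seeing the data, VE_6 and EPI_2 left out together. Promoters came from RefSeq (GRCm38.p6), with an entry for 16770 of 21812 genes. A few genes are not reported here.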

Additional observations from a re-analysis of the deposited data

Results flagged for a closer look

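Among 337 sets of 6 library values, for 184 genes and 3 library measures, 37 (11%) held a library whose gap to the nearest other was too large a share of the range of the 6 by Dixon's 95% critical value. By chance that value flags about 1 in 20 sets drawn from a normal distribution. Several sets here were mostly 0 with 1 small value, so that rate need not hold and the 11% is no measure of an excess. EPI_2 stood apart in 7 genes and was the highest of its part in each: Alb at 0.408 CPM (others at 0), Apoa1 at 8.16 CPM (others 0 to 3.06), Apob at 2.14 CPM (others 0 to 0.656) and Col4a5 at 0.714 CPM (others at 0), Col4a6 at 0.408 CPM (others at 0), Nrk at 0.510 CPM (others 0 to 0.109) and Rhox5 at 135 CPM (others 107 to 117). Of these, Apoa1, Apob, Nrk and Rhox5 rose in VE. VE_6 had 14214 genes with a count (others 12345 to 12691) and 1501 genes with exactly 1 count (others 389 to 655), and was low in Apob at 115 CPM (others 149.8 to 168). EPI_3 had the largest total, 14824609 counts (others 8880454 to 10052480).

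In the other VE libraries, VE_1 was high in Acvr2b at 7.56 CPM (others 2.39 to 4.13), Fgfr1 at 2.64 CPM (others 0 to 0.678) and Rxrg at 0.600 CPM (others 0 to 0.119). VE_2 was high in Bmp2 at 17.6 CPM (others 6.19 to 9.84) and Vegfa at 27.0 CPM (others 18.4 to 20.4) and low in Nodal at 38.5 CPM (others 53.5 to 59.6). VE_3 was high in Afp at 126 CPM (others 95.1 to 106), Ihh at 35.0 CPM (others 20.5 to 25.3) and Trp53 at 138 CPM (others 111 to 117). VE_4 was high in Cdx2 at 2.13 CPM (others 0 to 0.563), and VE_5 was low in Igf2bp2 at 145 CPM (others 161 to 167).

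In the other EPI libraries, EPI_1 was high in Cdx2 at 1.36 CPM (others at 0), Lhx1 at 5.44 CPM (others 0.408 to 1.19) and Sox2 at 23.8 CPM (others 11.6 to 16.0). EPI_3 was high in Dnmt3a at 1048 CPM (others 883 to 936) and Plac1 at 1.12 CPM (others 0 to 0.328). EPI_4 was high in Eomes at 6.45 CPM (others 0.323 to 1.94), Plat at 0.984 CPM (others 0 to 0.204) and Rarb at 0.984 CPM (others 0 to 0.204). EPI_5 was high in Hnf4a at 1.29 CPM (others 0 to 0.426), Id3 at 120.5 CPM (others 84.1 to 93.6) and Sfrp5 at 2.59 CPM (others 0 to 0.746) and low in Klf2 at 4.10 CPM (others 7.28 to 8.42), Tfrc at 38.0 CPM (others 51.3 to 58.4) and Zfp42 at 171 CPM (others 177 to 179.5). EPI_6 was high in Lamc1 at 50.2 CPM (others 19.7 to 30.1).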

How the results depend on the processing

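The main count of 8154 called genes was 8147 with RLE factors, 8188 with library totals, 8191 with ribosomal protein scaling, 8287 with DESeq2, 9859 without a low-count filter, 8201 with a filter of 1 CPM and 7858 without VE_6 and EPI_2. Without each library in turn it ran from 8115 to 8220. The count moved past 1.5-fold where a minimum change was added: to 5024 (2470 higher, 2554 lower) at 1 log2 unit and 2359 (1087 higher, 1272 lower) at 2. Over 292 genes and 5840 comparisons with an alternative, 5762 kept direction and call, 27 lost and 26 gained the call, and 25 reversed. Many of these genes were named for a large change or a small adjusted p, so the counts do not describe all tested genes. With ribosomal protein scaling, reversals were Wtap to 0.016, Lefty1 to 0.063, Stat2 to 0.14 and Igf2bp1 to 0.24. With library totals, Zc3h13 was at -0.0019, Ythdf3 at -0.035, Ythdc1 at -0.0086 and Fbxl5 at -0.022, and the list medians of m6A readers and erasers and of retinoid genes were at -0.035 and -0.040. Ptch1 and Trim71, at 0.00 in the main fit, turned to -0.015 and -0.013 with RLE factors, -0.083 and -0.082 with library totals, -0.016 and -0.012 with DESeq2, and -0.027 and -0.013 without VE_6 and EPI_2. Leaving out single libraries put Ptch1 at -0.12 to 0.14, Trim71 at -0.034 to 0.058 and the retinoid median at -0.15 to 0.091. Small list counts moved too. The germ cell gene that rose, Kit, was not called with library totals, no filter or the replicate block, without VE_6 and EPI_2, or without VE_4, VE_5, VE_6, EPI_1, EPI_4 or EPI_5. The trophoblast genes that fell were 1 and not 2 with ribosomal protein scaling, no filter or the replicate block, and without VE_2 to VE_6, EPI_4 or EPI_6. Neural genes that fell were 2 and not 1 with library totals, with DESeq2, without VE_6 and EPI_2, and without VE_3, EPI_4 or EPI_5. An apolipoprotein gene fell with library totals and without EPI_3, and 4 and not 2 ribosomal protein genes rose without VE_2. With ribosomal protein scaling, 5 m6A writers rose and 1 fell, 7 readers and erasers rose, 8 BMP genes rose, 4 proliferation genes rose, 2 core pluripotency genes rose, and 1 anterior gene fell. The cause of these moves was not tested.

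No pairing by replicate number was seen in the values. The labels do not say whether equal numbers share embryoids, and correlations between different tissues cannot exclude it. Deviations of same-numbered VE and EPI libraries correlated at -0.01 to 0.03, and 1 of 6 libraries correlated best with its own number. A fit with the replicate number as a block called 7947 genes, 3851 higher and 4096 lower. The spread between libraries was larger at low levels: between 10 and 30 CPM the median coefficient of variation was 19.8% in VE and 26.5% in EPI, against 4.29% and 3.92% above 1000 CPM. EPI libraries were the deeper ones, and the part of depth in this spread was not tested.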

Other observations

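Some iron genes differed between the parts beyond the transferrin and transferrin receptor genes above. Of 15 genes of iron handling, a list put together after the values had been seen, 11 were tested, 8 rose and 2 fell, and the 2 that fell were Trf and Tfrc. Because of that choice the count is no test, and 72.5% of all tested genes were called. Of the 8, Aco1 (log2 change 0.30 ± 0.12, adjusted p = 0.033) was not called with library totals (log2 change 0.21), without VE_6 and EPI_2 (0.30), or without VE_1, VE_5, EPI_2, EPI_3 or EPI_4 in turn (0.23 to 0.30). Ferroportin (Slc40a1), the only known iron exporter of cells, stood at 248, 289 and 309.8 CPM in VE and 11.5, 16.5 and 21.7 CPM in EPI (lowest, median and highest), a log2 change of 4.10 ± 0.12 (SE; adjusted p = 1.31e-17). Fth1 and Ftl1, the ferritin subunits that store iron, had log2 changes of 2.59 ± 0.03 (adjusted p = 2.17e-24) and 1.49 ± 0.04 (adjusted p = 6.25e-19). Slc11a2, which moves iron out of endosomes, rose from 17.2 ± 3.08 to 72.7 ± 5.49 CPM, and Hmox1, which frees iron from haem, from 150.4 ± 19.5 to 459 ± 30.5 CPM (mean ± SD, n = 6 each). In the 7 genes other than Aco1 named here the library ranges of the parts did not overlap, as for 55.3% of all tested genes.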
